A study of Mus musculus with 12 samples.

Results

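The *Il6* family was followed through 10 genes: the ligands *Il6*, *Il11* and *Lif*, the receptors *Il6ra*, *Il11ra1*, *Il6st*, *Lifr* and *Osmr*, and the signal genes *Stat3* and *Socs3*. They were picked by name, and all 10 were found by *symbol* among the 35727 genes of the bulk RNA-seq table, where all 10 were also among the 15506 genes that passed the filter on low counts. The cells were cardiac fibroblasts from pooled neonatal hearts of C57BL/6J mice, depleted of PECAM1+ cells and enriched for THY1+ cells. They were given either the pMX retroviruses for *Sox17* and *Erg*, which encode a SOX and an ETS transcription factor of endothelial cells, or a control virus, and all cultures were kept in the endothelial medium EGM2. RNA was collected after 3 days, 7 days or 4 weeks, which gave 6 groups of 2 libraries. The labels call the control cells fibroblasts and the *Sox17*-*Erg* cells iECs (induced endothelial cells), and name no age or sex beyond the neonatal source.

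Most cytokines of this family share the receptor chain gp130, encoded by *Il6st*. The products of *Il6*, *Il11* and *Lif* first bind chains of their own, and the gp130 complex then activates Janus kinases and the transcription factor STAT3. STAT3 induces *Socs3*, whose protein binds gp130 and the kinases and dampens the signal. Cardiac fibroblasts are a known source of *Il6*, *Il11* and *Lif*, and *Il11* is best known there for its part in fibrosis.

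Library totals were 19011635 to 41240449 counts. *Sox17* had 10019 to 36238 counts in the 6 *Sox17*-*Erg* libraries and 0 to 9 in the 6 control libraries, and *Erg* had 389 to 1842 against 2 to 49, so both factors followed the labels. These counts do not separate viral from endogenous transcripts. The highest *Erg* counts among the control libraries were 49 at Day 3 and 34 at Day 7, both in replicate 2, against 2 in each replicate 1. The summed level of 10 fibroblast markers was 26400 to 42000 CPM (counts scaled to a library of 1000000) in *Sox17*-*Erg* against 33000 to 40300 CPM in control at Day 3, 32300 to 35500 against 24900 to 33200 CPM at Day 7, and 12800 to 13400 against 16700 to 20200 CPM at 4 weeks, where *Sox17*-*Erg* lay wholly below control. Of these markers 1, 3 and 4 were lower and 0, 1 and 1 higher at Day 3, Day 7 and 4 weeks, and none was at 0 in any group. The summed level of 10 endothelial markers was 314 to 774 CPM in *Sox17*-*Erg* against 20.9 to 61.4 CPM in control. Of 5 mesothelial markers, 1, 3 and 5 were lower in *Sox17*-*Erg* at these times, of 8 cardiomyocyte markers 2, 2 and 5 were lower, and of 6 smooth muscle markers 2, 5 and 4 were higher. The part of any of these cell types in the values that follow was not tested. In bulk RNA, fewer cells of a type and less RNA per cell cannot be told apart. CPM values were scaled by TMM factors, which correct for library composition, and genes passed the edgeR quasi-likelihood test when p, adjusted by Benjamini-Hochberg over all 15506 genes, was under 0.05. Nothing in the labels says that replicates came from separate isolations, so the p-values measure the spread between these libraries, which may be technical.

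Across the 10 genes, the ligand *Il6* was higher and several receptors were lower in *Sox17*-*Erg* cells. At Day 3, 1 of 10 genes was higher (*Il6*) and 2 were lower (*Il6ra* and *Il11ra1*), beside 7.19% of all tested genes higher and 5.13% lower. At Day 7, 1 was higher (*Il6*) and 1 was lower (*Il11ra1*), beside 9.48% and 7.93% of all genes. At 4 weeks none was higher and 2 were lower (*Il11ra1* and *Osmr*), beside 11.9% and 11% of all genes. The median log2 fold change of the 5 receptors was -0.78, -0.89 and -0.84 at Day 3, Day 7 and 4 weeks, and over all genes the medians were 0.01, 0.006 and -0.014. The members are too few for counts of 1 or 2 to be set apart from these shares. Deviations of same-numbered libraries from their group means correlated weakly, at 0.19, 0.30 and 0.17, and the labels do not say what a number marks. With the replicate number as a block within each time point, 6, 4 and 4 of the 10 were called in either direction. Beside these stood 23.2%, 27.1% and 31% of all genes in that fit.

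**Figure D1:**
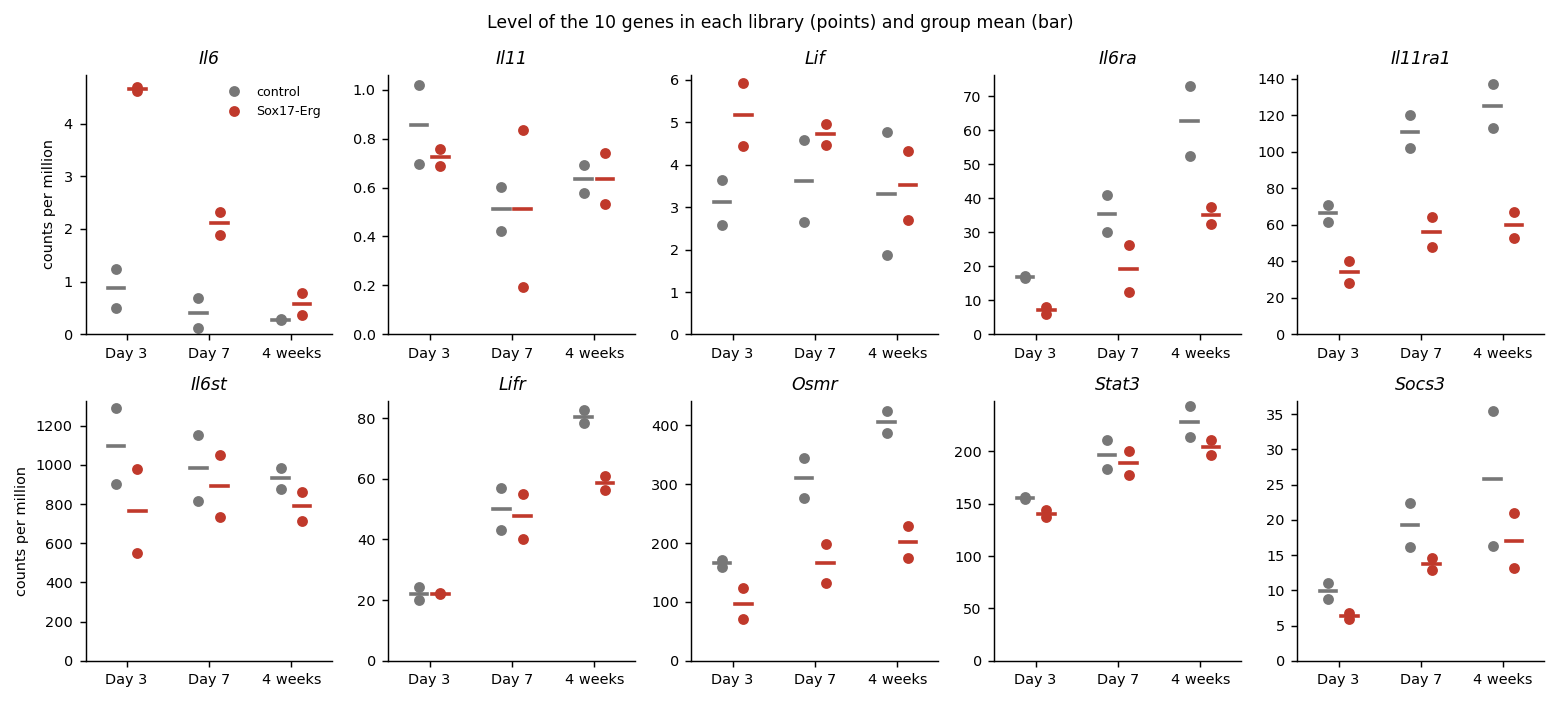
Level of each of the 10 genes in every library, in CPM on linear axes that start at 0, at Day 3, Day 7 and 4 weeks; grey points are control libraries, red points *Sox17*-*Erg* libraries and short bars the mean of 2. *Il6* lies near 4.6 to 4.7 CPM in *Sox17*-*Erg* at Day 3 and at or below 1.24 CPM in every control library, while *Il11ra1*, *Il6ra* and *Osmr* lie lower in *Sox17*-*Erg* at each time point.

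*Il6* (ENSMUSG00000025746, chr5:30013114-30019981, plus strand, GRCm38) encodes interleukin-6, the cytokine after which the family is named. Its promoter is shown because it was the member with the largest difference. The 250 bases before the RefSeq start site (GRCm38.p6, chr5:30012864-30013113, plus strand) overlapped no annotated exon. Capitals mark an AP-1 match (TGACTCA, 249 to 243 bases before the start), a SOX core match (ACAATG, 130 to 125 bases) and an NF-kB match (44 to 35 bases), read on either strand.
*Il6*: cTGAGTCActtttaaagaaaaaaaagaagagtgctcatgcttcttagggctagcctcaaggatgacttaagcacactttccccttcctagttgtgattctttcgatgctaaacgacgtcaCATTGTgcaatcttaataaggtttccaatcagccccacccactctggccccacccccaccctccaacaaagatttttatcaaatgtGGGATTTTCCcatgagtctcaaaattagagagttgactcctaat
In 32851 windows of the same length, 4.46% held the AP-1 letters, 10.7% the SOX letters and 2.13% the NF-kB motif. The ETS core GGAAGT, found in 19.7% of windows, and the STAT motif TTCNNNGAA, found in 7.02%, were not among the letters of this window. A match is a description of letters and not a site of binding.

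*Il6* was at 4.61 and 4.70 CPM in the 2 *Sox17*-*Erg* libraries at Day 3 and at 1.24 and 0.509 CPM in control. At Day 7 it was at 2.32 and 1.89 CPM against 0.691 and 0.121 CPM. At 4 weeks it was at 0.779 and 0.370 CPM against 0.276 and 0.285 CPM. The *Sox17*-*Erg* libraries lay above the control libraries at all 3 time points. The log2 fold change was 2.39 ± 0.64 (SE, n = 2 libraries a group, edgeR adjusted p = 0.042) at Day 3, which is 5.24-fold, and 2.35 ± 0.68 (edgeR adjusted p = 0.042) at Day 7, which is 5.11-fold. At 4 weeks the value was 1.03 ± 0.72 (edgeR adjusted p = 0.35) and did not pass. The counts were low, at 91 and 109 reads in *Sox17*-*Erg* at Day 3 and 34 and 11 in control, and at 84 and 43 against 18 and 3 at Day 7.

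Both *Il6* calls were close to the threshold. Leaving out 1 of the 12 libraries at a time gave log2 fold changes of 1.87 to 3.18 at Day 3, with adjusted p from 0.020 to 0.24, and the call was kept only without control Day 7 replicate 1 or replicate 2. At Day 7 the values were 1.60 to 4.05, with adjusted p from 0.017 to 0.18, and the call was kept without either control Day 3 library or control Day 7 replicate 1. Without control Day 7 replicate 2, the library with 3 reads, the Day 7 value was 1.60 (adjusted p = 0.16). The direction was the same in every fit.

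*Il11* (ENSMUSG00000004371, chr7:4772373-4782859, minus strand) encodes interleukin-11 and was at or below 1.02 CPM in every library. It was at 0.759 and 0.689 CPM in *Sox17*-*Erg* and at 1.02 and 0.694 CPM in control at Day 3. Day 7 had 0.193 and 0.835 CPM against 0.422 and 0.603 CPM, and the 4-week values were 0.531 and 0.741 CPM against 0.576 and 0.691 CPM. The groups overlapped at each time point. Its log2 fold changes were -0.25 ± 0.61, -0.05 ± 0.63 and 0.01 ± 0.61, and none passed (lowest edgeR adjusted p = 0.82).

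*Lif* (ENSMUSG00000034394, chr11:4257557-4272514, plus strand) encodes leukemia inhibitory factor, which signals through the gp130 and LIFR pair. At Day 3 it was at 5.92 and 4.44 CPM in *Sox17*-*Erg* against 3.64 and 2.59 CPM in control, with no overlap. Day 7 had 4.47 and 4.96 CPM against 4.57 and 2.65 CPM, and 4 weeks had 4.32 and 2.70 CPM against 4.76 and 1.87 CPM, with overlap at both. The log2 fold changes were 0.73 ± 0.45, 0.38 ± 0.45 and 0.07 ± 0.45, and none passed (lowest edgeR adjusted p = 0.32). Among the 3 ligands, the difference of *Il6* was therefore the only one past the threshold, and the differences between ligands were not tested.

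*Il11ra1* (ENSMUSG00000073889, chr4:41699989-41769474, plus strand) encodes the chain that binds interleukin-11. It was the one member called lower at all 3 time points by edgeR without a block and with the filter on low counts. *Il6ra* and *Osmr* also passed at all 3 with the replicate block within each time point, and by edgeR with no filter. With DESeq2 and no block, *Osmr* also passed at all 3. *Il11ra1* was at 28.2 and 40.2 CPM in *Sox17*-*Erg* against 61.9 and 70.9 CPM in control at Day 3. By Day 7 the level was 48.1 and 64.5 CPM against 102 and 120 CPM, and the 4-week values were 53.1 and 66.9 CPM against 137 and 113 CPM. No *Sox17*-*Erg* library reached the lowest control library of its time point. Expression was 1.94-fold, 1.97-fold and 2.09-fold lower, with log2 fold changes of -0.96 ± 0.22 (SE, edgeR adjusted p = 0.024), -0.98 ± 0.21 (edgeR adjusted p = 0.014) and -1.06 ± 0.21 (edgeR adjusted p = 0.0072).

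Of the 31-base words of *Il11ra1*, 57.7% also occur in the near-identical copies *Il11ra2* and *Gm13305*, so the split of reads among the 3 genes is uncertain. *Il11ra1* held 95.3% to 98.2% of their summed counts in each library. With the copies' counts added to it, a setting chosen after the values were seen, the log2 fold changes were -0.94, -0.98 and -1.08 and all 3 passed. Over the 12 fits that each left out a library, the call was lost at Day 3 without control Day 3 replicate 1 (-1.05), control Day 3 replicate 2 (-0.89) or *Sox17*-*Erg* Day 3 replicate 1 (-0.77). It was lost at Day 7 without control Day 7 replicate 2 (-0.86) or *Sox17*-*Erg* Day 7 replicate 1 (-0.78). At 4 weeks it was lost without control 4 weeks replicate 1 (-0.92) or *Sox17*-*Erg* 4 weeks replicate 1 (-0.91).

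*Il6ra* (ENSMUSG00000027947, chr3:89864059-89913196, minus strand) encodes the chain that binds interleukin-6, in a membrane or a shed form. It was at 6.07 and 8.10 CPM in *Sox17*-*Erg* and 16.7 and 17.3 CPM in control at Day 3. On Day 7 the libraries held 12.4 and 26.2 CPM against 30.1 and 41 CPM, and the 4-week values were 32.6 and 37.5 CPM against 73.1 and 52.5 CPM. Its exons share 242 bases with Gm42809 on the opposite strand. The *Sox17*-*Erg* libraries lay below the control libraries at each time point. The log2 fold change was -1.26 ± 0.34 (edgeR adjusted p = 0.043) at Day 3, which is 2.39-fold lower, and it was -0.89 ± 0.32 (edgeR adjusted p = 0.091) at Day 7 and -0.84 ± 0.32 (edgeR adjusted p = 0.089) at 4 weeks. With the replicate block within each time point, Day 7 gave -0.96 (adjusted p = 0.017) and 4 weeks -0.83 (adjusted p = 0.023), and both passed.

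The Day 3 call of *Il6ra* was lost in 7 of the 12 fits that left out a library. The values were -1.28 and -1.27 without control Day 3 replicate 1 or 2, -1.11 and -1.49 without *Sox17*-*Erg* Day 3 replicate 1 or 2, -1.26 without control 4 weeks replicate 1, and -1.30 and -1.27 without *Sox17*-*Erg* 4 weeks replicate 1 or 2. *Il6ra* is also carried by macrophages. The summed level of 10 macrophage markers was 282 to 315 CPM in *Sox17*-*Erg* and 295 to 453 CPM in control at Day 3, 292 to 487 against 932 to 1390 CPM at Day 7, and 72.2 to 344 against 52.4 to 434 CPM at 4 weeks. None of the 10 markers passed at any time point and none was at 0 in any group, and their part in the *Il6ra* values was not tested.

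*Osmr* (ENSMUSG00000022146, chr15:6813577-6874969, minus strand) encodes the oncostatin M receptor chain that pairs with gp130. At Day 3 it was at 70.6 and 123 CPM in *Sox17*-*Erg* against 160 and 172 CPM in control. Day 7 libraries held 132 and 199 CPM against 276 and 344 CPM, and the 4-week values were 229 and 174 CPM against 424 and 387 CPM. The groups did not overlap at any time point. The log2 fold changes were -0.78 ± 0.28 (edgeR adjusted p = 0.099), -0.91 ± 0.28 (edgeR adjusted p = 0.053) and -1.01 ± 0.28 (edgeR adjusted p = 0.030), so the 2.01-fold lower level at 4 weeks passed. With the block within each time point, *Osmr* also passed at Day 3 (-0.83, adjusted p = 0.018) and at Day 7 (-0.93, adjusted p = 0.0095). The 4-week call was lost without control Day 3 replicate 2 (-0.98), control 4 weeks replicate 1 (-0.94) or 2 (-1.06), or *Sox17*-*Erg* 4 weeks replicate 1 (-1.23) or 2 (-0.85).

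The letters of the ETS core GGAAGT stood before RefSeq start sites of the 3 receptor genes that were called lower. They are shown because *Erg* belongs to the ETS family, and any part of ERG in these levels was not tested. Each line gives the match in capitals with 10 bases on either side, on the strand of the gene, in GRCm38.p6.
*Il6ra*, chr3:89913354-89913379: cgcggctgcaGGAAGTaaccccctcc
*Il6ra*, chr3:89913193-89913218: cgtgcatgtgGGAAGTcgcgcccaca
*Il11ra1*, chr4:41760350-41760375: agacgggacaGGAAGTgtccagagga
*Il11ra1*, chr4:41760369-41760394: cagaggaggtGGAAGTgattggcagt
*Osmr*, chr15:6874519-6874544: ggcctctcccACTTCCcttctcaccg
The 2 matches of *Il6ra* end 168 and 7 bases before the start, those of *Il11ra1* 78 and 59 bases, and that of *Osmr*, on the opposite strand, 216 bases. The windows that hold these matches overlapped annotated exons over nearly their whole length. Those of *Il11ra1* and *Osmr* lay within the gene positions given above. A second window of *Il11ra1*, chr4:41762060-41762309, held no match. These matches describe letters and not sites of binding. Of the 13 member windows of 250 bases, 5 held the ETS letters, beside 19.7% of all windows. The other 2 belong to *Lif* and *Stat3*, neither of which was called in any comparison with control.

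*Il6st* (ENSMUSG00000021756, chr13:112464070-112510086, plus strand), the gene of gp130, had the highest level of the 10. It was at 551 and 977 CPM in *Sox17*-*Erg* against 900 and 1290 CPM in control at Day 3. The Day 7 level was 735 and 1050 CPM against 815 and 1150 CPM, and the 4-week values were 861 and 715 CPM against 986 and 875 CPM. The groups overlapped at Day 3 and Day 7. The log2 fold changes were -0.52 ± 0.31, -0.14 ± 0.31 and -0.24 ± 0.31, and none passed (lowest edgeR adjusted p = 0.30), although Day 3 passed with the block within each time point (-0.55, adjusted p = 0.023).

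*Lifr* (ENSMUSG00000054263, chr15:7090614-7197489, plus strand) encodes the chain that binds leukemia inhibitory factor and pairs with gp130. At Day 3 it was at 22.4 and 21.9 CPM in *Sox17*-*Erg* against 24.3 and 20 CPM in control. By Day 7 it had reached 54.9 and 40.3 CPM against 43.0 and 57.0 CPM, and the 4-week values were 56.3 and 60.8 CPM against 82.6 and 78.4 CPM. The groups overlapped at Day 3 and Day 7 and were apart at 4 weeks. The log2 fold changes were 0.00 ± 0.18, -0.07 ± 0.18 and -0.46 ± 0.18, and the last had an edgeR adjusted p of 0.095.

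*Stat3* (ENSMUSG00000004040, chr11:100885098-100939540, minus strand) differed little between the treatments. It was at 137 and 144 CPM in *Sox17*-*Erg* against 156 and 155 CPM in control at Day 3, 177 and 200 against 183 and 211 CPM at Day 7, and 211 and 197 against 243 and 214 CPM at 4 weeks. The *Sox17*-*Erg* libraries lay below control at Day 3 and 4 weeks and overlapped at Day 7. The log2 fold changes were -0.15 ± 0.12, -0.06 ± 0.12 and -0.16 ± 0.12 (lowest edgeR adjusted p = 0.36). Its exons share 72 bases with *Stat5a* on the opposite strand. *Stat3* transcript does not measure the phosphorylated, active protein.

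*Socs3* (ENSMUSG00000053113, chr11:117966079-117970047, minus strand) carried the only STAT motif among the member windows, shown here because *Socs3* is the classical STAT3 target. The motif lies 154 to 146 bases before the start, in capitals.
*Socs3*, chr11:117969502-117969530: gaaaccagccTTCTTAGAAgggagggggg
*Socs3* was at 5.92 and 6.72 CPM in *Sox17*-*Erg* against 8.70 and 11.1 CPM in control at Day 3. The Day 7 libraries held 12.9 and 14.6 CPM against 16.2 and 22.4 CPM, and the 4-week values were 21.0 and 13.1 CPM against 35.4 and 16.3 CPM. The groups were apart at Day 3 and Day 7 and overlapped at 4 weeks. The log2 fold changes were -0.64 ± 0.37, -0.49 ± 0.35 and -0.60 ± 0.35, and none passed (lowest edgeR adjusted p = 0.25). With the block within each time point, *Socs3* passed at Day 3 (-0.64, adjusted p = 0.031) and 4 weeks (-0.54, adjusted p = 0.032). The 4-week value rests on 1 library, as it was 0.06 without control 4 weeks replicate 1.

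**Figure D2:**
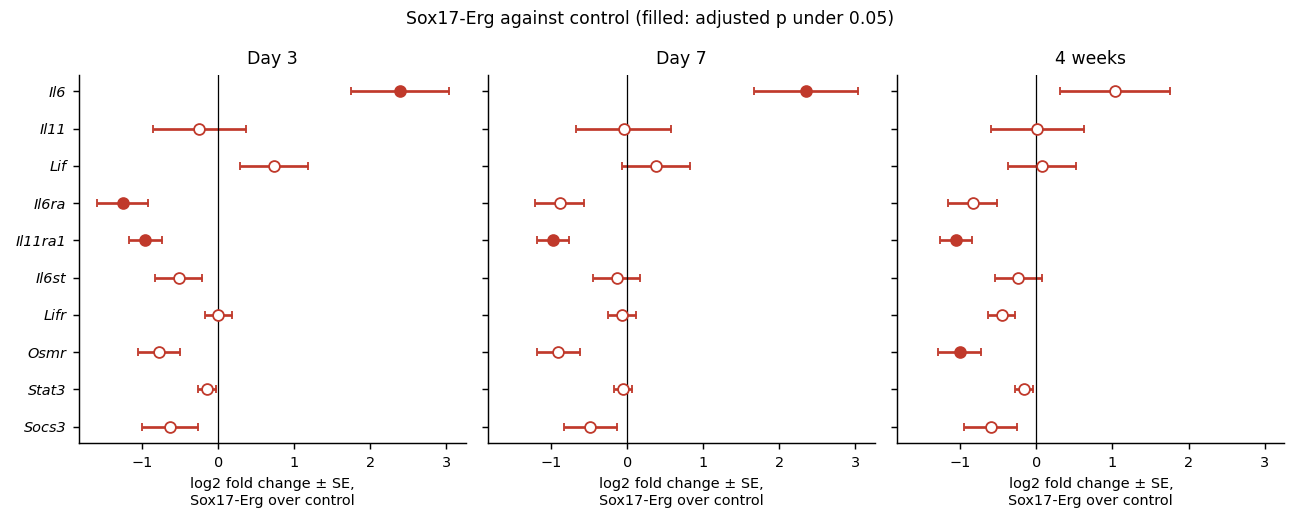
Log2 fold change of *Sox17*-*Erg* over control for the 10 genes at Day 3, Day 7 and 4 weeks, with error bars of 1 SE from the edgeR fit; filled points passed an adjusted p of 0.05. *Il6* lies to the right at 2.39 and 2.35 on Day 3 and Day 7, and *Il11ra1* lies to the left near -1 at each time point.

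The change of the *Sox17*-*Erg* effect between time points was tested as an interaction. No member passed between Day 3 and Day 7, Day 7 and 4 weeks, or Day 3 and 4 weeks, by edgeR or by DESeq2, and none had an unadjusted p under 0.05 by either tool. Of all genes, 0.0838%, 0.0387% and 3.21% passed in these comparisons. For *Il6* the effect at 4 weeks minus that at Day 3 was -1.36 ± 0.97, so the *Il6* calls at Day 3 and Day 7 without one at 4 weeks do not show that the effect differed.

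From Day 3 to 4 weeks, 4 of the 5 receptors and both signal genes rose in each treatment, and *Il6st* did not pass in either. That made 6 of the 10 genes in control, beside 13.9% of all genes, and 6 in *Sox17*-*Erg*, beside 15.1% of all genes. They were *Il6ra*, *Il11ra1*, *Lifr*, *Osmr*, *Stat3* and *Socs3* in each treatment. In control, *Il6ra* rose 3.70-fold (log2 1.89 ± 0.33, edgeR adjusted p = 0.0043) and *Lifr* 3.63-fold (1.86 ± 0.18, edgeR adjusted p = 0.00045). In *Sox17*-*Erg*, *Il6ra* rose 4.93-fold (2.30 ± 0.34, edgeR adjusted p = 0.0021) and *Lifr* 2.64-fold (1.40 ± 0.18, edgeR adjusted p = 0.0012). The other 4 rose by 0.55 to 1.39 on the log2 scale in control and by 0.54 to 1.43 in *Sox17*-*Erg*.

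*Il6* moved the other way. In *Sox17*-*Erg* it fell from 4.61 and 4.70 CPM at Day 3 to 0.779 and 0.370 CPM at 4 weeks, a log2 change of -3.00 ± 0.66 (edgeR adjusted p = 0.0098) or 8.02-fold, beside 15.6% of all genes that fell. In control the *Il6* value was -1.64 ± 0.71 (edgeR adjusted p = 0.12). The *Il6* call was lost without *Sox17*-*Erg* 4 weeks replicate 2 (-2.57, adjusted p = 0.063). *Il11*, *Lif* and *Il6st* did not pass over this interval in either treatment, with values of -0.56 to 0.10.

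*Lifr* was the one member called within the first interval by the test without a block. From Day 3 to Day 7 it rose 2.25-fold in control (1.17 ± 0.18, edgeR adjusted p = 0.0092), beside 4.70% of all genes, and 2.15-fold in *Sox17*-*Erg* (1.11 ± 0.18, edgeR adjusted p = 0.023), beside 2.04% of all genes. The control call was lost without control Day 3 replicate 1 (1.32), control Day 3 replicate 2 (1.04) or control Day 7 replicate 2 (0.96), and the *Sox17*-*Erg* call without *Sox17*-*Erg* Day 3 replicate 1 (1.16) or 2 (1.09). With the replicate number as 1 block over all libraries, *Il11ra1* also passed in control over this interval (0.74, adjusted p = 0.035) and *Il6ra* in *Sox17*-*Erg* (1.41, adjusted p = 0.043). Between Day 7 and 4 weeks no member passed by edgeR without a block in control or *Sox17*-*Erg*, where 0.393% and 1.82% of all genes passed. At an unadjusted p under 0.05 there were 2 members in each treatment by edgeR and 2 in each by DESeq2, and DESeq2 called 1 in control.

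Leaving out single libraries cost most of the smaller rises from Day 3 to 4 weeks. In control, *Il11ra1*, *Osmr*, *Stat3* and *Socs3* lost their calls without control Day 3 replicate 1 (0.82, 1.24, 0.56 and 1.23), without control Day 3 replicate 2 (1, 1.33, 0.53 and 1.56) and without control 4 weeks replicate 1 (0.78, 1.22, 0.46 and 0.73). In *Sox17*-*Erg*, all 4 lost them without *Sox17*-*Erg* Day 3 replicate 1 (0.63, 0.77, 0.56 and 1.40). *Osmr* (0.89) and *Socs3* (1.10) also lost them without *Sox17*-*Erg* 4 weeks replicate 1, *Il11ra1* (0.63) without *Sox17*-*Erg* 4 weeks replicate 2 and *Socs3* (1.53) without *Sox17*-*Erg* Day 3 replicate 2. The rises of *Il6ra* and *Lifr* from Day 3 to 4 weeks kept their calls in all 12 fits.

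**Figure D3:**
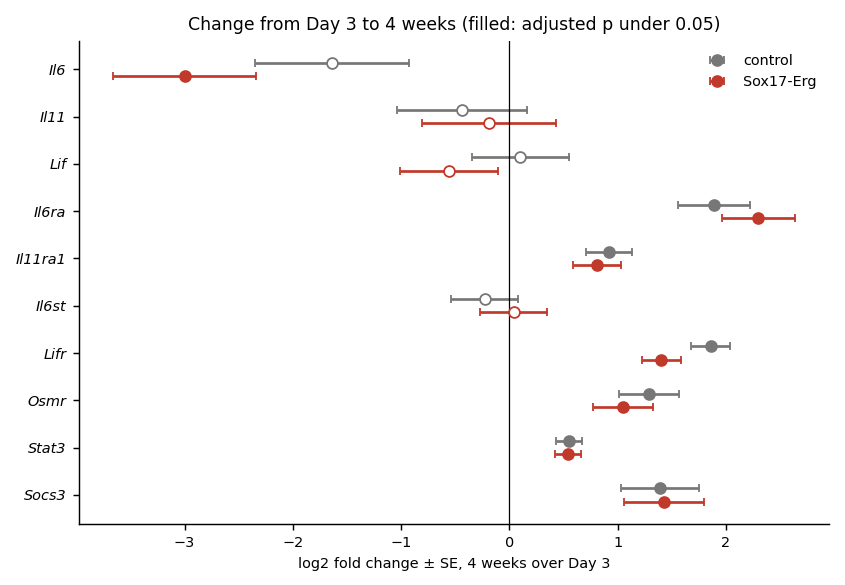
Log2 fold change from Day 3 to 4 weeks within control (grey) and within *Sox17*-*Erg* (red), with error bars of 1 SE; filled points passed an adjusted p of 0.05. The same 6 receptor and signal genes lie to the right of 0 and filled in both treatments, and *Il6* lies farthest left, at -3.00 in *Sox17*-*Erg*.

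Levels of different genes were compared as CPM per kilobase of annotated exon. *Il6st* led in every group, at 68.9 to 98.5 CPM per kilobase as group means. *Stat3*, *Osmr* and *Il11ra1* followed, between 7.65 and 33.4, and no order held among those 3 in all groups. In control at 4 weeks, *Osmr* was at 33.4 ± 2.2 (SD, n = 2), above *Il11ra1* at 28.0 and *Stat3* at 24.0, the last 2 with overlapping libraries. In *Sox17*-*Erg* at 4 weeks, *Stat3* was at 21.4, above *Osmr* at 16.6 and *Il11ra1* at 13.4, whose libraries overlapped. *Socs3*, *Lifr* and *Il6ra* came next, at 2.19 to 8.94, 2.06 to 7.47 and 0.820 to 7.27. The ligands were lowest in most groups, with *Lif* at 0.716 to 1.19 and *Il11* at 0.246 to 0.411.

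*Il6* changed its place in this order. It was last in all 3 control groups, at 0.359, 0.167 and 0.115 CPM per kilobase at Day 3, Day 7 and 4 weeks, and overlapped *Il11* in the first 2. In *Sox17*-*Erg* at Day 3 it was at 1.92 CPM per kilobase, above *Lif* at 1.19 and *Il6ra* at 0.820, and the libraries of the 3 genes did not overlap. By 4 weeks it was last again, at 0.237, and overlapped *Il11*. The ratio of *Il6st* to *Il6ra* per kilobase was 42.0 and 57.9 in control and 70.7 and 93.9 in *Sox17*-*Erg* at Day 3. At 4 weeks it was 10.5 and 13 against 20.6 and 14.8, so gp130 transcripts outnumbered those of the binding chain in every library.

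A wider list of 67 genes of the pathway was then read, of which 61 passed the filter. Day 3 had 3 of the 61 called higher and 7 lower, beside 7.19% and 5.13% of all genes. Day 7 had 4 higher and 13 lower, beside 9.48% and 7.93%, and 4 weeks had 9 higher and 14 lower, beside 11.9% and 11%. The median log2 fold changes were -0.23, -0.23 and -0.16. At Day 7 all 10 macrophage markers had values below 0, with a median of -1.37, and none passed. The part of macrophage transcripts in the values below was not tested.

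Among the other ligands, *Clcf1* (cardiotrophin-like cytokine factor 1) was higher at each time point. It was at 17.5 and 13.6 CPM in *Sox17*-*Erg* against 6.80 and 8.37 CPM in control at Day 3, at 24.9 and 19.6 against 6.03 and 5.67 CPM at Day 7, and at 31.7 and 25.6 against 5.64 and 4.64 CPM at 4 weeks. The groups were apart each time, and the level was 2.05-fold, 3.81-fold and 5.56-fold higher (log2 1.04 ± 0.20, 1.93 ± 0.20 and 2.48 ± 0.21, edgeR adjusted p = 0.015, 0.00048 and 7.8e-05). *Ctf1*, *Ctf2* and *Ebi3* had 0 to 50 counts a library and did not pass. *Osm* (0 to 8 counts), *Cntf* (0 to 10), *Il27* (0 to 2) and *Il31* (0 in every library) were too low to test. *Osm* is the ligand of *Osmr*.

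Among the other receptors, *Cntfr* and *Il27ra* were lower. *Cntfr*, the binding chain for *Clcf1* and for ciliary neurotrophic factor, had 28 and 18 counts in *Sox17*-*Erg* against 8 and 10 in control at Day 3, 15 and 12 against 43 and 49 at Day 7, and 10 and 14 against 184 and 75 at 4 weeks. It was above control at Day 3 (1.54 ± 0.46, edgeR adjusted p = 0.059, not passed) and below it at Day 7 (-1.95 ± 0.44, edgeR adjusted p = 0.016) and 4 weeks (-3.13 ± 0.44, edgeR adjusted p = 0.0013). *Il27ra*, which pairs with gp130 for interleukin-27 and is best known from lymphocytes, was at 4.40 and 5.60 CPM against 11.3 and 13.4 CPM at Day 3 and at 8.67 and 7.82 CPM against 46.5 and 29.6 CPM at 4 weeks. Its log2 fold changes were -1.30 ± 0.41 (edgeR adjusted p = 0.069), -2.04 ± 0.40 (edgeR adjusted p = 0.0085) and -2.21 ± 0.40 (edgeR adjusted p = 0.0044). *Il31ra* (2 to 14 counts) and the copy *Il11ra2* (13 to 227 counts) did not pass.

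Of 8 Janus kinases and STATs other than *Stat3*, 1 was lower in *Sox17*-*Erg* at Day 3 and 0 were higher, beside 5.13% and 7.19% of all genes. This was *Stat5a*, lower than control by 0.88 on the log2 scale (edgeR adjusted p = 0.018) and not called later. *Jak3* and *Stat2*, named after their values were seen, were each lower at 1 later time point. Of 8 inhibitors, *Cish*, a STAT5-induced SOCS protein, was the one called, lower at each time point, beside 5.13%, 7.93% and 11% of all genes. Its log2 fold changes were -0.98, -1.33 and -1.94 (edgeR adjusted p = 0.047, 0.010 and 0.0014).

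Of 22 target genes, Day 3 had 2 higher and 4 lower (7.19% and 5.13% of all genes), Day 7 had 3 higher and 6 lower (9.48% and 7.93%), and 4 weeks had 5 of each (11.9% and 11%). Among those called lower, *Lcn2* (lipocalin-2) had log2 fold changes of -2.24, -3.44 and -3.21, *Steap4* (a metalloreductase) -2.99, -3.27 and -3.65, and *Fgl2* (fibrinogen-like 2) -2, -3.36 and -2.69, with every edgeR adjusted p at or below 0.048. *Hp* (haptoglobin) was 16.9-fold lower at Day 7 and 31.1-fold lower at 4 weeks (edgeR adjusted p = 0.0047 and 0.0013), *Icam1* 2.94-fold and 2.85-fold lower (edgeR adjusted p = 0.015 and 0.012), and *Cebpb* 2.10-fold lower at Day 3 (edgeR adjusted p = 0.036).

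Among the targets called higher, *Il4ra*, a receptor chain for interleukin-4, was 1.87-fold, 1.48-fold and 1.79-fold higher (edgeR adjusted p = 0.0089, 0.033 and 0.0045), and *Myc*, a growth regulator, was 2.76-fold higher at Day 3 (edgeR adjusted p = 0.0050). *Vegfa*, the main growth factor of endothelial cells, was 1.62-fold higher at Day 7 and 3.07-fold at 4 weeks (edgeR adjusted p = 0.048 and 0.00081). Its Day 7 call was lost with the replicate number as 1 block over all libraries (log2 0.69, adjusted p = 0.057) and in 10 of the 12 fits that left out a library (0.62 to 0.72), and the block within each time point kept it (0.69, adjusted p = 0.040). *Tnfrsf12a*, the receptor of TWEAK, was 3.89-fold and 4.17-fold higher (edgeR adjusted p = 0.011 and 0.0064), and *Junb*, an AP-1 subunit, was 2.77-fold higher at 4 weeks (edgeR adjusted p = 0.031). *Hif1a*, the oxygen-regulated factor, was 1.37-fold higher at 4 weeks (edgeR adjusted p = 0.033), and *Saa3*, an acute-phase protein, was 2.83-fold lower at Day 7 (edgeR adjusted p = 0.041). These 2 were named after their values were seen.

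Of 12 tested genes that act upstream of *Il6*, 1, 3 and 3 were lower at Day 3, Day 7 and 4 weeks, beside 5.13%, 7.93% and 11% of all genes, and 0, 0 and 2 were higher, beside 7.19%, 9.48% and 11.9%. The 2 higher at 4 weeks, named after their values were seen, were *Nfkbiz*, an inducible co-regulator of NF-kB (1.71-fold), and *Rela*, an NF-kB subunit (1.31-fold), each with an edgeR adjusted p of 0.040. *Il1r1*, the interleukin-1 receptor, had log2 fold changes of -0.79, -0.94 and -1.06 (edgeR adjusted p = 0.038, 0.014 and 0.0059). Its adaptor *Myd88* had -0.65 at Day 7 and -0.93 at 4 weeks (edgeR adjusted p = 0.040 and 0.0069), and *Tnfrsf1a*, a receptor of TNF, had -0.69 and -0.76 (edgeR adjusted p = 0.025 and 0.012). Of the 43 calls of the 20 genes of this list with the smallest p, 15 were kept when each library was left out in turn and 28 were lost at least once, and none turned in direction. The 15 were those of *Clcf1*, *Lcn2*, *Steap4*, *Fgl2* and *Hp* at Day 7 and 4 weeks, and of *Cish*, *Il4ra*, *Cntfr*, *Il27ra* and *Vegfa* at 4 weeks.

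**Figure D4:**
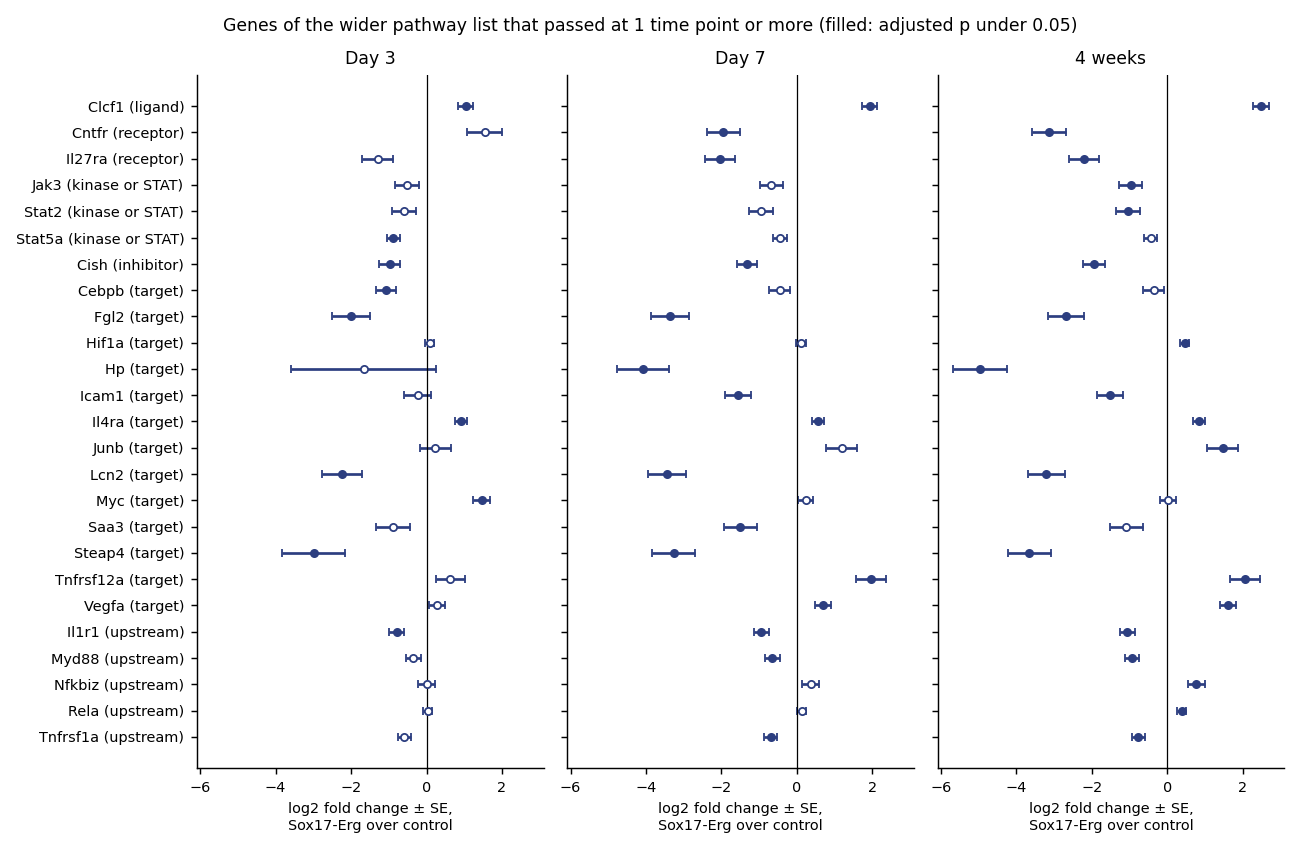
Log2 fold change of *Sox17*-*Erg* over control for 25 genes of the wider list that passed at 1 or more time points, grouped by role, with error bars of 1 SE; filled points passed an adjusted p of 0.05. *Clcf1* lies to the right at each time point, and *Lcn2*, *Steap4*, *Fgl2* and *Cish* lie to the left at each.

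For the 3 members with most calls against control, with a tie of *Il6ra* and *Osmr* settled by the smaller p, the genes of the most similar pattern over the 12 libraries were read from Pearson's r of log2 CPM, as a description without a test, since the points share library, treatment and time point. *Il11ra1* was closest to *Fmo1* (0.993), *Tnfrsf1a* (0.988), *Lum* (0.987), *Tmem119* (0.985) and *Ufc1* (0.985). *Il6ra* was closest to *Lmbrd1* (0.990) and *Cys1* (0.987), and *Il6* to *Polr1e* (0.971) and *Snx7* (0.957). The low counts of *Il6* make its ranking the least secure of the 3.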

How the data were processed

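Stranded poly(A) RNA-seq libraries (Kapa kit, TRIzol RNA) were made from 12 cultures. Per the labels and methods, the authors used bcl2fastq 2.20.0, trimmed high GC content with BBDuk, quantified transcripts with Salmon (mm10) and ran DESeq2. The Salmon version and annotation are not given in the sources used here. The deposited estimated counts are whole numbers per gene, not scaled for library size, and trimming by GC content could bias genes of high GC content. Symbols and positions came from GENCODE M21 (GRCm38), which named 35493 of 35727 IDs, and promoter windows from RefSeq GRCm38.p6, 250 bases before each start.

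Samples were grouped by treatment and time from the labels. The main test was edgeR 4.0.16 in R 4.3.3 (TMM; filterByExpr, minimum count 10, minimum total 15; quasi-likelihood; 1 mean a group; 6 residual degrees of freedom), with Benjamini-Hochberg adjustment over 15506 genes. The SE is the size of the log2 fold change over the square root of F. Likeness used log2 CPM with a prior count of 2. The fit was also run on simulated counts with known fold changes at Day 7, and no result here rests on that run. Its spread followed a trend over genes, so it does not test the spread of single genes. Totals of 19011635 to 41240449 counts leave *Il6*, *Il11* and *Cntfr* at few reads a library. Deviations of same-numbered libraries from their group means correlated at 0.19, 0.30 and 0.17 at Day 3, Day 7 and 4 weeks, so the numbers were taken to pair libraries within a time point; the labels do not say what a number marks. Alternatives were DESeq2 1.42.0, its size factors, other filters, 1 time point at a time, replicate blocks, a GC content offset, stricter thresholds and leaving out each library.

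The 10 genes, the wider list, markers and motifs were chosen with earlier results of these data known. The text was to name all 10 members, every listed ligand and receptor, the 20 other pathway genes with the smallest p among those called against control, and the 5 most alike genes at most for the 3 members with most calls. Some genes that this rule covers are not reported here, although counts over the list include them.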

Additional observations from a re-analysis of the deposited data

Results flagged for a closer look

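Of the 10 members and the wider pathway list, 4 genes had a *Sox17*-*Erg* effect that differed between time points by the interaction test (edgeR quasi-likelihood, Benjamini-Hochberg adjusted over 15506 genes), each between Day 3 and 4 weeks, beside 3.21% of all genes, and none of the 4 was a member. For *Cntfr* the log2 effect at 4 weeks minus that at Day 3 was -4.67 ± 0.63 (edgeR adjusted p = 0.0073), from 1.54 at Day 3 to -3.13 at 4 weeks, with 10 to 28 counts in the *Sox17*-*Erg* libraries of these time points and 8 to 184 in control. It kept its call in all 12 fits that left out a library, with values from -5.04 to -4.13. For *Clcf1* the difference was 1.44 ± 0.28 (edgeR adjusted p = 0.030), from 1.04 to 2.48, and the call was lost in 7 of the 12 fits, with values from 1.27 to 1.67. For *Myc* the difference was -1.43 ± 0.30 (edgeR adjusted p = 0.037) and for *Vegfa* 1.34 ± 0.29 (edgeR adjusted p = 0.044), and both calls were lost in 11 of the 12 fits, with values from -1.73 to -1.17 and from 1.01 to 1.62. The causes were not tested. Groups of 2 libraries were too small for a test of single outlying libraries.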

How the results depend on the processing

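The number of the 10 members called against control depended on the fit. The members called against control by the test without a block kept their directions in all the fits run, whereas *Socs3* at 4 weeks, called with the block within each time point (-0.54) and without control 4 weeks replicate 2 (-1.04, adjusted p = 0.047), was at 0.06 without control 4 weeks replicate 1. The count at Day 3 was 3 and became 6 with the replicate block within each time point and 5 with that block and a GC content offset. It was 4 with DESeq2 and with no filter and 2 with a log2 fold change of at least 1. Beside these 3 counts stood 17.4%, 11.1% and 6.02% of all genes. The count at Day 7 was 2 and became 4 with DESeq2, with no filter, with the block within each time point and with the GC content offset and block, and 1 with a fit of Day 7 alone or a log2 fold change of at least 1. With a stricter filter on low counts or the replicate number as 1 block over all libraries, the Day 7 count was 3, beside 19.8% and 19.6% of all genes. The count at 4 weeks was 2 and became 4 with a fit of 4 weeks alone and with either form of the block within time points. With no filter it was 3, beside 15.9% of all genes. At an adjusted p under 0.01 the counts at Day 3, Day 7 and 4 weeks were 0, 0 and 1, beside 2.72%, 7.1% and 11.8% of all genes, and 2 members were called over time in control and 4 in *Sox17*-*Erg*, beside 11.1% and 13.7%. Leaving out each library gave 0 to 3 members at each time point, beside 1.69% to 12.3%, 5.69% to 15.5% and 10.5% to 22.2% of all genes at Day 3, Day 7 and 4 weeks. It gave 2 to 6 members over time in control (11.1% to 26.5%), 3 to 7 over time in *Sox17*-*Erg* (13.2% to 29.9%) and 0 for the change of effect. The 3 fits with 0 members at Day 3 called 1.69% to 2.34% of all genes there. Calls over all genes moved too: in either direction 23.2%, 27.1% and 31% of all genes passed with the block within each time point at Day 3, Day 7 and 4 weeks, 23.4%, 27.6% and 32.1% with that block and the offset, and 15.7%, 7.46% and 20.7% with fits of 1 time point. At Day 7, 21.1% passed with DESeq2, 13.3% with no filter and 10.2% with a log2 fold change of at least 1. With a fit of Day 7 alone, *Il6* gave 2.33 (adjusted p = 0.13). The replicate number as 1 block over all libraries brought in *Osmr* against control at Day 7 (-0.92, adjusted p = 0.043) and, from Day 3 to Day 7, *Il11ra1* in control (0.74, adjusted p = 0.035) and *Il6ra* in *Sox17*-*Erg* (1.41, adjusted p = 0.043), and *Vegfa* lost its Day 7 call (0.69, adjusted p = 0.057) and its change of effect (1.34, adjusted p = 0.052). With the block within each time point, 0 members passed for the change of effect. Within 1 treatment over time, that fit leaves the spread between blocks out of its errors, so its calls there (6 members in each treatment from Day 3 to Day 7, and *Il6ra* in *Sox17*-*Erg* from Day 7 to 4 weeks, 0.95, adjusted p = 0.039) were not used.

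Values near 0 turned in sign: *Lifr* at Day 3 (7e-04 with no filter, 0.004 with the block within each time point) and *Il11* at 4 weeks (-0.01 with either block and with the GC content offset and block). Leaving out single libraries also turned the sign of values that had not passed with all libraries and no block, with ranges of -0.53 to 0.06 for *Il11* and -0.17 to 0.15 for *Lifr* at Day 3. At Day 7 the ranges were -1.43 to 0.70 for *Il11*, -0.46 to 0.13 for *Il6st*, -0.31 to 0.15 for *Lifr* and -0.19 to 0.04 for *Stat3*, and at 4 weeks -0.27 to 0.22 for *Il11*, -0.43 to 0.91 for *Lif* and -1.04 to 0.06 for *Socs3*. Over all single-gene values and settings, 1827 kept direction and call, 32 passed newly, 276 no longer passed and 21 turned in sign. The causes were not tested. With 2 libraries a group, few reads for *Il6* and *Il11* and no record of separate isolations, values that missed the threshold do not show that levels were alike.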
